A study of Mus musculus with 16 samples.

Results

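The levels of 10 genes were examined in mouse soleus muscle during a gradual fall in oxygen: the C-type lectin genes Cd209f, Cd209d, Cd209b, Clec10a and Mrc1, the scavenger receptor gene Cd163, the hyaluronan receptor gene Lyve1, the folate receptor gene Folr2, the chemokine gene Ccl8 and the interleukin 33 receptor gene Il1rl1. They are 10 of the 20963 genes that had a named probe with a value on every array. The list was drawn up when the differences between days in these same samples were already known, so levels and differences of the 10 genes are given as a description, without tests. Of their 12 probes, 8 carried the scanner software's flag for a signal well above background on 3 or more of the 16 arrays, and these 8 probes kept 8 of the 10 genes. Cd209b and Cd163 were not kept.

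Resident macrophages live in the connective tissue between muscle fibres, along vessels and nerves, where they take up debris, haemoglobin and sugar-bearing ligands. The mannose receptor encoded by Mrc1, the galactose-binding lectin encoded by Clec10a and the CD209 family bind sugars on the cell surface, and Cd163, Lyve1 and Folr2 are widely used to mark resident cells rather than newly arrived monocytes. Ccl8 encodes a secreted chemokine of the CC family that macrophages of this kind often make, and in the mouse it acts through the receptor encoded by Ccr8. Il1rl1 encodes ST2, through which interleukin 33 acts on mast cells, regulatory T cells, innate lymphoid cells and some macrophages.

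Soleus muscle of male mice was sampled at day 0, when the hypoxia protocol started, and at days 3, 7 and 14. Oxygen was lowered gradually to 10% during the first 7 days and stayed there in the second week, and the day 0 samples carry the treatment label hypoxia too. The labels used here give no strain, genotype or age and do not say whether RNA samples came from separate animals, so the spread between samples, and any p-value built on it, may be technical. Days 0 and 14 had 4 RNA samples each, and days 3 and 7 had 3 each, 14 in all. They fill 16 1-colour arrays because day 0 RNA samples 1 and 2 appear on each of the 2 slides, beside days 3 and 7 on slide 1 and beside day 0 samples 3 and 4 and day 14 on slide 2.

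A level is the log2 of the background-subtracted spot intensity minus the 75th percentile of the array, so 0 marks a spot brighter than 75% of the non-control spots. Slide 2 was dimmer. The lowest level that counted as above background ran from -4.01 to -3.25 on slide 1 and from -2.46 to -1.84 on slide 2, so dim genes were measured down to lower levels on slide 1. Levels are therefore set side by side within a slide, and fitted differences between days include a slide term that rests on day 0 RNA samples 1 and 2. RNA of the whole muscle cannot tell fewer cells of a type from less RNA per cell.

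The 250 bases before and 50 bases after the annotated start of transcription are shown for Ccl8 and Mrc1, which hold a match to the binding sequence of a macrophage factor, and for Cd209f and Cd209d, which hold 0 matches to the motifs searched. Ccl8 lies at chr11:82114935-82115234 on the plus strand, Mrc1 at chr2:14229164-14229463 on the plus strand, Cd209f at chr8:4105715-4106014 on the minus strand and Cd209d at chr8:3878450-3878749 on the minus strand, from RefSeq on GRCm38.p6. Each sequence runs 5′ to 3′ along the gene. Capitals mark a match to GAGGAAG, the binding sequence of PU.1, a transcription factor of the macrophage lineage, here read on the opposite strand.
Ccl8: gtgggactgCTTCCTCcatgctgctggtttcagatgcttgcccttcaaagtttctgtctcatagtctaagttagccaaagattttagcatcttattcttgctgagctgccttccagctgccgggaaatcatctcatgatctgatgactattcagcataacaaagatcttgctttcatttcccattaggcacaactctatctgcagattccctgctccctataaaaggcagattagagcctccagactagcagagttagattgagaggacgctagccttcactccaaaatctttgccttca
Mrc1: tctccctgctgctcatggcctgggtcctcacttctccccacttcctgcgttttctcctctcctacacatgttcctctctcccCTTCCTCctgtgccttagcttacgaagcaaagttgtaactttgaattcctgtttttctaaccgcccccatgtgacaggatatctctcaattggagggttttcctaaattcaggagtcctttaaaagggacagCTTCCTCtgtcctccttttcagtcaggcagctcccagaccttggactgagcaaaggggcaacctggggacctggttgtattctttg
Cd209f: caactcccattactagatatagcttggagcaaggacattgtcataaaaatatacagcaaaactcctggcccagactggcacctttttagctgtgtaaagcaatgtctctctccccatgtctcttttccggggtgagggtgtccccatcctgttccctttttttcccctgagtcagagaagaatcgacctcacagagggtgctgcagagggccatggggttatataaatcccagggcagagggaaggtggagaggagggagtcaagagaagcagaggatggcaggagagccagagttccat
Cd209d: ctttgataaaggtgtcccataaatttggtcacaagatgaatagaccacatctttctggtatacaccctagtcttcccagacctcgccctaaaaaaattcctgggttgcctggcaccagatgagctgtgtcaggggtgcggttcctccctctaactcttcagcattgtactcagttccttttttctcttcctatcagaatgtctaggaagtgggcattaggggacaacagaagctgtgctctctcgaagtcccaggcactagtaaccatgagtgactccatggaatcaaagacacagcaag
A set of 7 motifs was searched on both strands, and 8 of the 10 genes had a promoter window in the table, with 10 windows in all because Il1rl1 and Folr2 had 2 each. GAGGAAG occurred in 13.6% of all 32851 windows of this length, and among the 8 genes in Ccl8 (at -241 to -235 from the first transcribed base, which is position 0) and Mrc1 (at -168 to -162 and at -36 to -30). The STAT6 motif (TTC and GAA with any 4 bases between, in 6.95% of all windows), the MAF half-site TGCTGAC (4.67%) and the NF-kB motif (GGGA, any base, TT, any base, CC, in 1.2%) were in 0 of the 10 windows. The hypoxia response core ACGTG, present in 19.6% of all windows, was found in the Cd163 window and in no other of the 10. The glucocorticoid half-site AGAACA (19%) was in the Cd163 window and 1 of the Folr2 windows, and the C/EBP motif TTGCNNAA (10.8%) in the Cd209b window and 1 of the Il1rl1 windows. The Cd209f and Cd209d windows held 0 of the 7 motifs. Both genes sit in a row of lectin genes on chromosome 8, in the order Cd209a, Cd209e, Cd209d, Cd209b, Cd209c, Cd209f and Cd209g.

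All 8 kept genes had their highest mean level at day 3, and they differed in what followed. Cd209f, Cd209d, Clec10a and Lyve1 were high at day 3 and lay near day 0 at days 7 and 14. Ccl8, Folr2 and Mrc1 were below day 0 at day 7. Their fitted differences (± SE) of day 3 from day 0 were 0.78 ± 0.34, 0.15 ± 0.33 and 0.51 ± 0.27, in that order. Il1rl1 read higher than day 0 at each later day, with its highest level at day 3, and was mostly not above background at days 0 and 14.

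**Figure D1:**
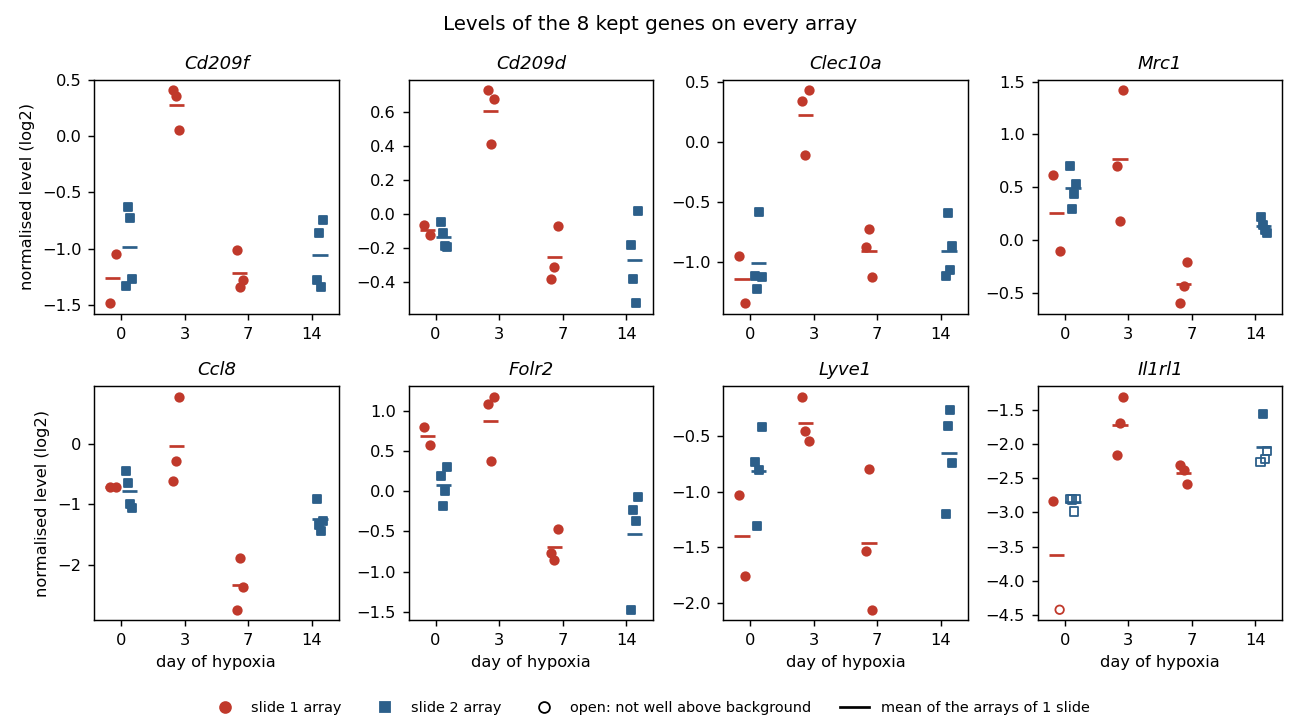
Level of each kept gene (log2, relative to the 75th percentile of the array) on every array, by day of hypoxia. Circles are slide 1 and squares slide 2, open symbols are spots not well above background, and short lines are means of the arrays of 1 slide and day. The day 3 arrays of Cd209f, Cd209d and Clec10a lie above all other arrays of those genes, and the day 7 arrays of Ccl8 lie below all others.

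Cd209f and Cd209d encode mouse relatives of DC-SIGN, lectins that bind mannose-rich sugars on microbes. On slide 1, Cd209f stood at -1.49 and -1.05 at day 0, at 0.41, 0.36 and 0.06 at day 3, and at -1.01, -1.35 and -1.28 at day 7. The slide 2 arrays stood at -1.28, -0.86, -1.34 and -0.74 at day 14, against -1.33, -0.63, -0.72 and -1.27 at day 0. All 3 day 3 arrays were above every other array, with 1.11 between the lowest of them and the highest day 0 array of the slide, and the other days overlapped. The fitted level at day 3 was 1.55 ± 0.23 above day 0 on the log2 scale (SE, n = 3 and 4), a 2.92-fold difference, and at day 7 it was 0.06 ± 0.23 above day 0. With normexp background and quantile normalization together, the day 3 difference was 0.99.

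Cd209d followed the same course with a smaller step. It measured -0.06 and -0.12 at day 0, 0.73, 0.41 and 0.68 at day 3, and -0.38, -0.31 and -0.07 at day 7 on slide 1. On slide 2 it measured -0.18, -0.38, -0.52 and 0.02 at day 14, against -0.05, -0.11, -0.19 and -0.19 at day 0. The day 3 arrays again stood alone, 0.48 above the day 0 arrays of their slide, and day 7 and day 14 overlapped with day 0. The fitted difference of day 3 from day 0 was 0.72 ± 0.15 (1.65-fold), while day 7 and day 14 differed from day 0 by -0.14 ± 0.15 and -0.13 ± 0.12. The day 0 spread of Cd209d was the narrowest of the kept genes, at an SD of 0.06 over 4 RNA samples.

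Cd209b, which lies next to Cd209d and is known from marginal zone macrophages of the spleen, was above background on 0 of 16 arrays. Its single probe read -5.35 to -2.22, and the highest of these values, -2.22 in day 14 sample 4, was still under the -1.85 needed on that array. The next highest day 14 value was -3.70, so that sample stood apart from the other 3. Of the other family members, Cd209c and Cd209e were not above background on any array. Cd209a was above it on 4 arrays and Cd209g on 5. Cd209a differed by 1.24 ± 0.64 between day 3 and day 0 and Cd209g by 0.65 ± 0.45, and neither passed the test in any comparison (limma, adjusted p = 0.0884 or more). Cd209a was above background at day 0 on 1 of 2 arrays of slide 1 and 0 of 4 of slide 2, so its value is no measured fold.

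Clec10a encodes the macrophage galactose-type lectin. Its level on slide 1 was -0.95 and -1.35 at day 0, 0.35, -0.11 and 0.43 at day 3, and -0.88, -0.73 and -1.13 at day 7. The slide 2 levels were -1.12, -0.59, -1.07 and -0.87 at day 14, against -1.12, -1.23, -0.58 and -1.13 at day 0. The lowest day 3 array was 0.84 above the highest day 0 array of that slide. The fitted difference was 1.30 ± 0.22 at day 3 (2.46-fold) and 0.16 ± 0.22 at day 7, and the day 3 value was 0.83 with normexp background and quantile normalization together. Its chromosome neighbour and close paralog Mgl2, with 1 probe above background on all 16 arrays, differed by 0.01 ± 0.12 at day 3 (adjusted p = 0.979). The Mgl2 probe read 4.855 to 5.254 over all arrays, against -1.347 to 0.433 for Clec10a, and what it measures in this tissue was not tested. Whether the probes of the 2 genes pick up each other's transcripts was not tested either.

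Mrc1 encodes the mannose receptor CD206, which internalises mannosylated glycoproteins and collagen fragments. On slide 1 it measured 0.62 and -0.11 at day 0, 0.70, 0.18 and 1.42 at day 3, and -0.60, -0.44 and -0.21 at day 7. The slide 2 arrays measured 0.22, 0.14, 0.09 and 0.06 at day 14, against 0.70, 0.29, 0.44 and 0.53 at day 0. Day 3 overlapped with day 0, whereas the day 7 arrays lay below all day 0 arrays of slide 1 by 0.10, and the day 14 arrays lay below all day 0 arrays of slide 2 by 0.07. The fitted differences from day 0 were 0.51 ± 0.27 at day 3, -0.67 ± 0.27 at day 7 and -0.36 ± 0.21 at day 14. Without day 3 sample 4, the highest of the 3, the day 3 difference was 0.19, and without day 0 sample 1 it was 0.82. The day 7 difference was -0.36 without day 0 sample 1, -0.97 without day 0 sample 2 and -0.40 with normexp background and quantile normalization together.

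Ccl8 showed the widest swing among the kept genes. On slide 1 its level was -0.72 and -0.72 at day 0, -0.62, -0.29 and 0.78 at day 3, and -2.75, -1.89 and -2.37 at day 7. Levels on slide 2 were -0.92, -1.35, -1.45 and -1.28 at day 14, against -0.45, -0.65, -0.99 and -1.07 at day 0. The 3 day 7 arrays were the lowest of all 16, and day 3 sample 4 was the highest. The fitted level at day 7 was 2.29 ± 0.31 below day 3, a 4.9-fold difference between days of 1 slide, and 1.51 ± 0.34 below day 0. At day 3 Ccl8 was 0.78 ± 0.34 above day 0, and 0.37 above it without sample 4. The day 14 arrays overlapped with day 0, at a fitted difference of -0.46 ± 0.27. With normexp background and quantile normalization together, the day 7 difference was -0.58 from day 0 and -1.02 from day 3. In the deposited series table these were -0.86 and -1.42.

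Folr2 encodes a folate receptor found on macrophages. On slide 1 it stood at 0.80 and 0.58 at day 0, 1.09, 0.37 and 1.17 at day 3, and -0.76, -0.85 and -0.47 at day 7. On slide 2 it stood at -1.47, -0.24, -0.37 and -0.08 at day 14, against 0.19, -0.18, 0.01 and 0.31 at day 0. Day 3 overlapped with day 0, and the day 7 arrays lay 1.05 below the lowest day 0 array of the slide. The fitted differences from day 0 were 0.15 ± 0.33 at day 3, -1.42 ± 0.33 at day 7 and -0.62 ± 0.27 at day 14. Folr2 also had a large slide effect: the same 2 day 0 RNA samples read 0.61 and 0.76 higher on slide 1. Without their slide 1 arrays no slide term was fitted, so days 3 and 7 on slide 1 were set against day 0 on slide 2. With the slide offset thus included, the difference was 0.80 at day 3 and -0.77 at day 7. Without day 14 sample 1 the difference was -0.31 at day 14.

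Lyve1 encodes a hyaluronan receptor of perivascular macrophages that lymphatic endothelium also carries. It measured -1.03 and -1.76 at day 0, -0.15, -0.45 and -0.55 at day 3, and -1.54, -0.80 and -2.06 at day 7 on slide 1. The arrays of slide 2 measured -1.20, -0.41, -0.26 and -0.74 at day 14, against -0.73, -1.31, -0.81 and -0.42 at day 0. Day 3 lay above day 0 and above day 7 within slide 1, by 0.48 and 0.26 between the nearest arrays, and day 14 overlapped with day 0. The fitted day 3 difference was 0.92 ± 0.35. It was 0.61 without day 0 sample 2 and 0.56 with normexp background and quantile normalization together. Without the slide 1 arrays of day 0 no slide term was fitted, and the difference, with the slide offset included, was 0.44. Beside Lyve1, Prox1, a transcription factor gene of lymphatic endothelium, was above background on 12 arrays and differed by -0.17 ± 0.36 at day 3 (limma, adjusted p = 0.809). RNA of the whole muscle does not show which cells carried the Prox1 signal. The mean level of the 5 kept lymphatic genes ran from -0.72 to -0.28 on the day 3 arrays, against -0.31 to -0.29 on the day 0 arrays of slide 1, and its part in the Lyve1 levels was not tested.

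Cd163 encodes the scavenger receptor that clears complexes of haemoglobin and haptoglobin. Its single probe was above background on 1 of 16 arrays, day 3 sample 1 at -3.63. The day 7 arrays read -5.78 to -5.42 and the day 14 arrays -4.06 to -3.96, all below background, so no fold is given. Hp, which encodes haptoglobin, was above background on all 16 arrays and differed by 1.14 ± 0.46 between day 3 and day 0, without passing the test (adjusted p = 0.146).

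Il1rl1 was dim. Its brightest probe was above background on 8 of 16 arrays: all 3 at day 3, all 3 at day 7, day 0 sample 1 on slide 1 and day 14 sample 2. On slide 1 this probe stood at -2.83 and -4.42 at day 0, -2.17, -1.69 and -1.31 at day 3, and -2.31, -2.39 and -2.59 at day 7. On slide 2 it stood at -2.27, -1.57, -2.22 and -2.11 at day 14, against -2.81, -2.81, -2.99 and -2.81 at day 0. The later days read above day 0 within each slide, but day 0 was above background on 1 of 2 arrays of slide 1 and 0 of 4 of slide 2, and day 14 on 1 of 4, so the day 0 and day 14 readings are mostly of a probe not above background. The fitted differences from day 0 were 1.92 ± 0.38 at day 3, 1.22 ± 0.38 at day 7 and 0.81 ± 0.30 at day 14. Since day 0 is mostly not above background, these values are no measured fold. They depend on the day 0 array of sample 2 on slide 1, which read 1.61 lower there than the same RNA on slide 2. Without day 0 sample 2 the day 3 difference was 1.14 and the day 7 difference 0.43, and without day 0 sample 1 they were 2.72 and 2.02. With normexp background and quantile normalization together, the differences were 0.55 at day 3, 0.28 at day 7 and 0.23 at day 14. At day 14 the level needed to count as above background was also higher, at -1.96 to -1.84 on the day 14 arrays, against -2.46 to -2.04 on the day 0 arrays of slide 2. Of the other 2 Il1rl1 probes, 1 was above background on 0 arrays and 1 on day 3 sample 4 alone, at -1.77 against -5.95 and -5.23 in the other day 3 samples.

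**Figure D2:**
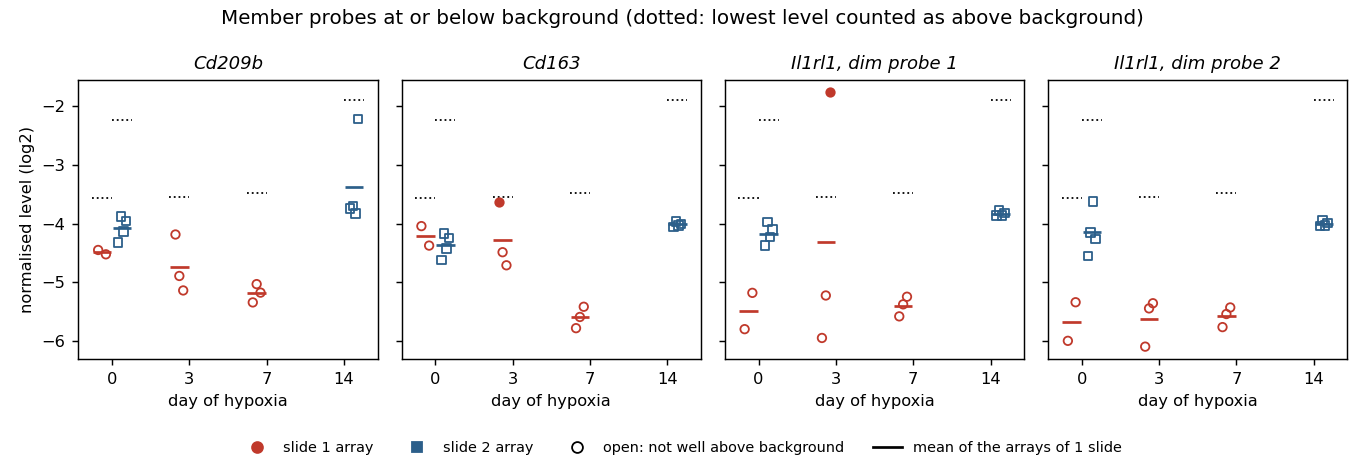
Levels (log2) of the 4 member probes that were not kept, by day of hypoxia, with dotted lines at the mean lowest level that counted as above background on the arrays of each slide and day. Filled symbols, above background, occur at day 3 only: 1 array for Cd163 and 1 for the first dim Il1rl1 probe.

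Across the kept genes, the median fitted difference of day 3 from day 0 was 0.85, beside 0.06 over all 22145 features, and all 8 differences were positive. Within slide 1, 6 of the 8 had all day 3 arrays above both day 0 arrays, as had 24.7% of all features, and 0 had all of them below, as had 18.4%. The list was chosen from the differences between all of these days, so nothing is read from these counts or from those of the other comparisons.

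At day 7 against day 0 the genes went different ways, with a median of -0.15 beside 0.09 over all features. All day 7 arrays lay above day 0 within slide 1 for 1 kept gene (33.5% of all features) and below it for 3 (21.6%). At day 14 against day 0, Il1rl1 (mostly not above background) lay above and Mrc1 below all day 0 arrays within slide 2, as did 10% and 4.1% of all features.

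Day 7 against day 3 compares days of the same slide. All 8 kept genes were lower at day 7, with no overlap between the 3 day 7 and the 3 day 3 arrays, while 6.06% of all features lay wholly below in that way and 11.2% wholly above. The fitted differences were -2.29 ± 0.31 for Ccl8, -1.57 ± 0.31 for Folr2, -1.49 ± 0.21 for Cd209f, -1.18 ± 0.25 for Mrc1, -1.14 ± 0.21 for Clec10a, -1.08 ± 0.32 for Lyve1, -0.86 ± 0.14 for Cd209d and -0.71 ± 0.35 for Il1rl1. With normexp background and quantile normalization together, they ran from -1.16 for Folr2 to -0.27 for Il1rl1. The median of the 8 was -1.16, beside 0.05 over all features. At day 14 against day 7, days of different slides, the differences ran from -0.41 ± 0.44 for Il1rl1 to 1.05 ± 0.39 for Ccl8. Il1rl1 was above background on 1 of 4 day 14 arrays, and its difference ran from -1.193 to 0.394 over the alternatives.

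**Figure D3:**
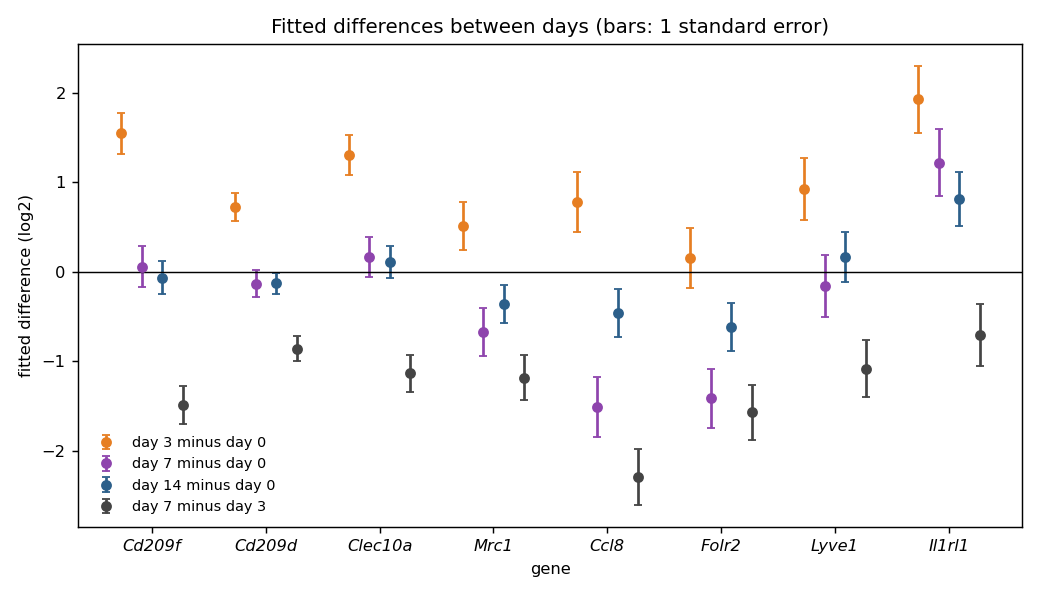
Fitted differences between days (log2, slide term included) for the 8 kept genes, with bars of 1 SE, from 3 or 4 RNA samples per day. All day 3 differences from day 0 are above 0, from 0.15 to 1.92, and all day 7 differences from day 3 are below 0, from -2.29 to -0.71.

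In order of mean level over RNA samples, slide-adjusted, day 3 came first for all 8 genes. The next day in that order overlapped with day 3 for Ccl8, Mrc1 and Folr2, where it was day 0. It did not overlap for Cd209f, Clec10a and Il1rl1 (day 7), Cd209d (day 0) and Lyve1 (day 14). For Lyve1 that day lay on the other slide. Before slide adjustment the Lyve1 levels overlapped, at -0.545 to -0.148 at day 3 and -1.199 to -0.263 at day 14. The share of all features with such a gap was not worked out, so nothing is read from these gaps. Day 7 came last for Ccl8, Mrc1, Folr2, Lyve1 and Cd209d. Its range did not overlap with the day above it for Ccl8, by a gap of 1.05 between means, and for Mrc1, by 0.31. It overlapped with the day above for Folr2, Lyve1 and Cd209d. For Ccl8 and Mrc1 the day above was day 14, on the other slide. The Mrc1 ranges nearly met, at 0.026 and 0.062, and the fitted difference was 0.306 with an SE of 0.312, and 0.055 to 0.544 over the alternatives. For Il1rl1 the order of days 0 and 14 is not given, since most of their readings were not above background.

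The kept genes also varied together to different degrees. Over the 14 RNA samples, which share slides and days, Cd209f and Clec10a had a Pearson correlation of 0.89, Ccl8 and Mrc1 0.88, Cd209f and Cd209d 0.87, and Folr2 and Il1rl1 -0.04. These values describe the samples and carry no test. Outside the list, the genes most like the mean of the 8 (each scaled to unit variance) were Mmp3, a matrix metalloproteinase gene (r = 0.93), Adamts4, an aggrecanase gene (0.88), and Sox9, a transcription factor gene (0.87). Mmp3 was above background on the 3 day 3 arrays alone, and Adamts4 on those and on 1 day 0 array of slide 1. The correlations of Mmp3 and Adamts4 therefore rest mostly on readings not above background. C4b and C3, genes of the complement cascade, followed with 0.85 each, then Tkt (0.85), Ecm1 (0.84), Hsp90aa1 (0.84), Anxa3 (0.83) and Csf1r (0.83). Within slide 2, which holds no day 3 array, the correlations of these 10 genes ran from -0.29 for Tkt to 0.58 for C3. The genes most like Ccl8 were Sema4a (0.91), Vcan (0.90), Mrc1 (0.88), Fcrls (0.88) and Wfdc17 (0.88). Vcan encodes the matrix proteoglycan versican, which monocytes also make.

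Genes outside the list were tested with limma, and those with an adjusted p under 0.05 (Benjamini-Hochberg over all 22145 features) are called. Of all features, 6.09% were called at day 3 against day 0 (2.27% higher and 3.82% lower), 23.8% at day 7 (15.6% higher and 8.15% lower) and 0.402% at day 14 (0.294% higher and 0.108% lower). Between later days, 0.677% were called at day 7 against day 3 (0.447% higher and 0.23% lower) and 2.3% at day 14 against day 7 (1.12% higher and 1.18% lower). Within slide 1 alone, 0 features passed in the day 3 comparison with day 0 (4559 at an unadjusted p under 0.05) and 0 between days 7 and 3 (2627 at such a p).

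General macrophage markers were read beside the members. Csf1r, the growth factor receptor of the lineage, Adgre1, which encodes F4/80, and C1qa, a complement gene of tissue macrophages, were above background on all 16 arrays. Timd4, a marker of long-lived resident cells, was above background on none, and Cd68 had no named probe. Of 21 kept pan-macrophage genes, 0 passed at day 3 against day 0 (limma, 3 at an unadjusted p under 0.05), with a median difference of 0.22. The mean level of these 21 genes was 0.17, -0.17 and 1.42 in day 3 samples 1, 2 and 4, against 0.61 and -0.09 on the day 0 arrays of slide 1. Day 3 sample 4, the highest of the 3 for Ccl8, Mrc1, Folr2, Clec10a and Il1rl1, was also the highest for general macrophage genes. In that sample Cd209f and Lyve1 were the lowest of the 3 and Cd209d lay between the others. Without it the pan-macrophage median at day 3 was -0.14. The part of the amount of macrophage RNA in the members' levels was not tested.

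At day 7 against day 0, 6 of the 21 pan-macrophage genes fell, 0 rose, and all 21 differences were negative, with a median of -0.85. C1qa fell by 1.62 ± 0.36 (limma, adjusted p = 0.00761, and 0.0014 to 0.0812 over 25 alternatives) and C1qb fell by 1.53 ± 0.36 (adjusted p = 0.00966). Within slide 1 alone 0 of the 21 passed, at a median of -0.87, and without day 0 sample 1 or sample 2 it was 0 as well, at medians of -0.57 and -1.12. The count was 2 without day 7 sample 1 or sample 2 and 11 without day 3 sample 4, and the median was -0.42 with normexp background and quantile normalization together. Beside this median, the fitted day 7 differences were 0.06 for Cd209f, -0.14 for Cd209d and 0.16 for Clec10a, and -1.51 for Ccl8 and -1.42 for Folr2. Whether these differ from the pan-macrophage genes was not tested. At day 7 against day 3, 19 of the 21 differences were negative, with a median of -1.24, and 0 passed (16 at an unadjusted p under 0.05). Without day 3 sample 4 that median was -0.65, also with 0 called, and without day 3 sample 2 it was -1.66 with 7 called.

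**Figure D4:**
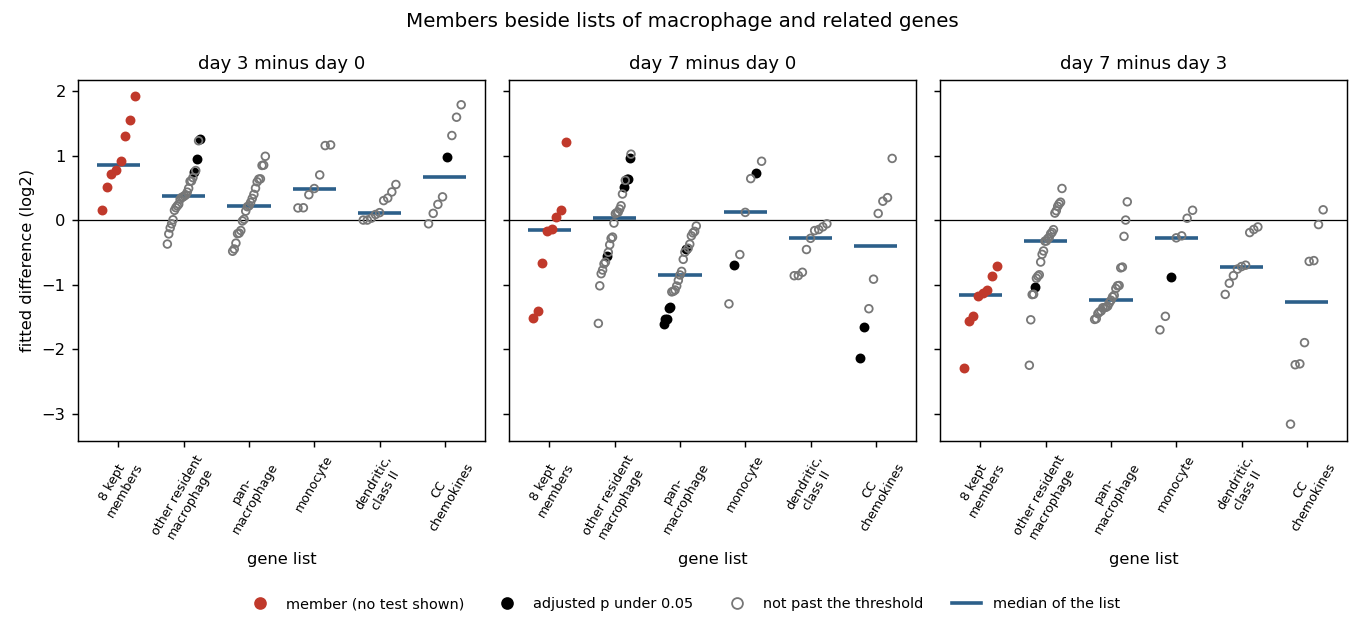
Fitted differences (log2) of the 8 kept genes and of genes from 5 marker lists, each dot 1 gene, with medians as horizontal lines. Filled black dots have an adjusted p under 0.05 (limma), and no test is shown for the members. The pan-macrophage median is 0.22 at day 3 and -0.85 at day 7, both against day 0, and -1.24 at day 7 against day 3.

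Among 24 other kept genes associated with resident macrophages, 3 rose and 0 fell at day 3, with a median of 0.37. Retnla, a secreted protein gene of alternatively activated mouse macrophages, rose by 1.25 ± 0.26 (adjusted p = 0.0221, and 0.00306 to 0.196 over 25 alternatives). Maf, a transcription factor of resident macrophages, rose by 0.94 ± 0.22 (adjusted p = 0.0304, 0.00778 to 0.229), and Selenop, a selenium carrier that many cells make, rose by 0.75 ± 0.15 (adjusted p = 0.0193, 0.00206 to 0.219). Retnla was at 3.34 to 3.49 on the day 3 arrays, against 1.68 and 2.59 on the day 0 arrays of slide 1, and did not overlap. Within slide 1 alone, without day 0 sample 2 and without day 3 sample 2, 0 of the 24 were called at day 3, and without day 0 sample 1 it was 1. At day 7 against day 0, 4 of the 24 rose (Selenop, Wwp1, Cd36 and Gas6) and Fcgrt fell, where 15.6% of all features rose and 8.15% fell, and without day 0 sample 2 both counts were 0. Whether macrophages were the source of these transcripts in whole muscle was not tested. At day 7 against day 3, Pf4, a platelet and macrophage chemokine gene, was the single gene called, falling by 1.04 ± 0.20 (adjusted p = 0.0326, 0.00741 to 0.209).

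Chemokines related to Ccl8 were also read. Its chromosome neighbour Ccl12 was above background on 1 array. Ccl2 and Ccl7, ligands of the monocyte receptor encoded by Ccr2, differed by 1.31 ± 0.64 and 1.79 ± 0.80 at day 3 and did not pass (limma, adjusted p = 0.22 and 0.184). At day 0, Ccl7 was above background on 1 of 2 arrays of slide 1 and 0 of 4 of slide 2, so its value is no measured fold. Of 8 kept chemokines, Ccl24, an eotaxin gene, rose at day 3 by 0.98 ± 0.26 (adjusted p = 0.044), which 6 of 24 alternatives kept under 0.05 (0.0265 to 0.224). Ccl6 and Ccl9 fell at day 7, by 2.14 ± 0.52 (adjusted p = 0.0112, 0.00273 to 0.1) and 1.65 ± 0.48 (adjusted p = 0.0259, 0.0077 to 0.189). Ccr8, the mouse receptor of Ccl8, was above background on 10 arrays and differed by -0.12 ± 0.38 at day 3 (adjusted p = 0.873).

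Around Il1rl1, Il33, which encodes its ligand, was above background on all 16 arrays and differed by 0.58 ± 0.21 at day 3 and 0.57 ± 0.21 at day 7 (adjusted p = 0.109 and 0.0617). Il1rap, the partner chain of the receptor, and the type 2 cytokine genes Il4 and Il13 were above background on no array, and Il10 on 2. Of 10 kept interleukin 33 and type 2 genes, 0 passed at day 3 (2 at an unadjusted p under 0.05). Mast cells carry Il1rl1 too: Cpa3, a mast cell protease gene, was at -0.96 to -0.51 on the day 3 arrays, against -2.81 and -2.08 on the day 0 arrays of slide 1, and its difference of 1.23 ± 0.63 did not pass (adjusted p = 0.246). Of 7 kept mast cell genes, 0 passed at day 3 (1 at an unadjusted p under 0.05), with a median of 0.61. Foxp3, the defining gene of regulatory T cells, was above background on no array. The part of mast cells in the Il1rl1 levels was not tested.

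Monocyte and dendritic cell markers were read as well. Of 7 kept monocyte genes 0 passed at day 3 (limma, 1 at an unadjusted p under 0.05), and Ccr2 differed by 1.17 ± 0.80 (adjusted p = 0.386). Ccr2 was above background at day 0 on 1 of 2 arrays of slide 1 and 1 of 4 of slide 2, so its value is no measured fold. At day 7 against day 0, F10, a coagulation factor gene, rose by 0.73 ± 0.22 (adjusted p = 0.0267, 0.00514 to 0.178 over 25 alternatives) and Vcan fell by 0.70 ± 0.18 (adjusted p = 0.015, 0.000687 to 0.147), 2 of 7 where 23.8% of all features were called. F10 read 5.883 to 7.127 over all arrays, against -1.521 to -0.033 for Vcan, and whether monocytes were its source was not tested. Against day 3, Vcan fell at day 7 by 0.89 ± 0.17 (limma, adjusted p = 0.03, 0.00779 to 0.199), 1 of 7 where 0.677% of all features were called. Of 9 dendritic cell and class II genes 0 passed in any of the 5 comparisons, with 0 at an unadjusted p under 0.05 as well. For the labelled tissue, Myh7, the slow myosin gene of soleus fibres, stood at 10.23 to 10.81 over all arrays.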

How the data were processed

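RNA of each soleus sample was labelled with Cy3 from 100 ng by the Low Input Quick Amp kit and scanned with Feature Extraction 11.0.1.1, per the labels' protocols and the file headers. The deposited scanner files hold spot brightness as a linear intensity with the background subtracted, and no scaling between arrays, per the file headers. The deposited series table holds a linear intensity too, with column medians of 45.1 to 46.4 and its steps not given in the sources used here, so it served as an alternative. The submitters' design names 4 samples per day, and any beyond the 3 used at days 3 and 7 were not analysed here.

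The intensity was taken to log2, set relative to each array's 75th percentile (control spots left out) and averaged within probes, after outlier-flagged spots (99 to 179 of 62976 per array) were left out. No spot was saturated. Probes were named through RefSeq transcripts. Of 55681 probes, 27656 received a gene symbol and 37 lacked a value on an array. Probes flagged as well above background on 3 or more of the 16 arrays were kept (29479). A gene was represented by its brightest kept probe on average, giving 22145 features, 14107 of them named genes. Between 37.9 and 55.3% of an array's spots were well above background. Precision is limited by how many RNA samples there are.

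Days were compared with limma 3.58.1 (R 4.3.3, statmod 1.5.0), 2-sided, in a model of day plus slide, where arrays of the same RNA formed a random block (correlation 0.448) and so were not counted as separate samples. Without day 0 sample 1 or 2 it could not be estimated, and the same value was used. The Benjamini-Hochberg method, run across the 22145 features, gave the adjusted p-values, and 0.05 was the threshold. The code was tested on simulated data. The 10 members, 18 gene lists of 214 genes and the naming rule were chosen with earlier results of these data known. The rule named all members, up to 3 called genes of smallest p per direction, list and comparison, a fixed set of marker, ligand and receptor genes, and the genes most correlated with the members (10) and with Ccl8 (5), and the text selects from these. Cd209c, Cd209e, Cd209g and 1 of the 4 resident macrophage genes that rose at day 7 fall outside it and were named after their values were seen. Alternatives covered background, scaling, filter, probes, slide and left-out samples. The planned normexp background used median spot signals in place of mean ones and was followed by quantile normalization. Tables and figures were made with pandas 2.3.3, Matplotlib 3.10.9 and NumPy 2.4.6 under Python 3.11.15.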

Additional observations from a re-analysis of the deposited data

Results flagged for a closer look

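Of 154 groups of 4 RNA samples examined, 10 had a sample further from the others than Dixon's 95% limit allows, where chance gives about 1 in 20. A single member is among them: Cd209b in day 14 sample 4 read -2.22, against -3.83 to -3.70 in the other 3, all below background. At day 14, sample 4 was also high for the slow fibre genes Tnnc1 (7.53, others 6.97 to 7.03) and Tnni1 (7.25, others 6.73 to 6.81) and low for Lum, a fibroblast gene (2.73, others 3.01 to 3.03). Day 14 sample 1 was high for Vcan (-0.033, others -0.43 to -0.37) and Tnfrsf4 (-0.21, others -0.45 to -0.43), and day 14 sample 2 for Mmp3 (-3.09, others -3.91 to -3.79), which was not above background there. At day 0, sample 2 was low for Csf3r (7.25, others 7.40 to 7.42), sample 4 for Itgam (6.28, others 6.44 to 6.48) and sample 3 for Pecam1 (0.55, others 0.67 to 0.69). The causes were not tested.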

How the results depend on the processing

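Under up to 25 alternatives for each of the 8 kept members and 5 comparisons, 923 of 987 differences stayed within 1 replicate SD of the value reported and 64 moved further. Counts of called features moved more. The main counts against day 0 were 1349 (day 3), 5263 (day 7) and 89 (day 14), with 150 between days 7 and 3 and 509 between days 14 and 7. In that order they were 2371, 5095, 798, 308 and 1175 with normexp background and quantile normalization together, 403, 3751, 17, 44 and 285 with no filter, 2615, 6024, 416, 445 and 1660 when only probes above background everywhere were tested, and 261, 3288, 3094, 62 and 2600 without the slide term. They were 2075, 3878, 35, 100 and 4186 without the slide 1 arrays of day 0. No slide term was fitted there either, so slide offsets enter the counts for days on different slides. Within slide 1 they were 0, 2093 and, for day 7 against day 3, 0 (4559, 7408 and 2627 at an unadjusted p under 0.05), and within slide 2 there was 1 at day 14. Quantile normalization gave 214 at day 14, and the series table gave 674 there and 808 for day 14 against day 7. The share called higher at day 14 was 73% in the main fit, 49.6% with normexp and quantile together, 50.9% with quantile normalization alone and 48.5% in the series table. Leaving out single RNA samples gave 10 to 1713, 107 to 5800, 3 to 219, 28 to 268 and 5 to 1210. The lowest counts came without day 0 sample 2 (10, 107 and 5), day 0 sample 1 (3) and day 3 sample 1 (28).

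Samples of the same replicate number were at most weakly correlated. The correlations of 19 same-numbered pairs ran from -0.15 to 0.17, with 5 over 0.1, and those of differently numbered pairs from -0.20 to 0.19. Of 14 samples, 7 correlated best with their own number. How many would do so by chance was not worked out, so whether the numbers pair the samples is not settled. With the number as a block, the counts were 1341, 5027, 21, 44 and 1146. Some named genes turned sign without the slide 1 arrays of day 0: Fcgrt (0.10), Stat6 (0.064), Nr3c1 (-0.056), Tie1 (0.18) and Tnnc1 (0.12) at day 7, Tnni1 at days 3 (0.19) and 7 (0.017), and Tie1 at day 3 (0.18). That fit held no slide term. It set days 3 and 7 on slide 1 against day 0 on slide 2, with the offset between slides included. Tie1 at day 0 read 2.374 to 2.605 on slide 1 and 1.258 to 1.430 on slide 2. Itgam turned sign at day 7 (0.11) with the mean over its probes, for a reason not tested. Signal over background limits Il1rl1, which was above background on 1 of 8 arrays of slide 2.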

Other observations

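Lists of other cell types gave these counts in the same fits. Of 7 kept neutrophil genes, S100a8 and S100a9, which encode calcium-binding proteins stored in neutrophils, fell at day 7 against day 0. S100a8 fell by 3.04 ± 0.82 (limma, adjusted p = 0.0176, and 0.0056 to 0.132 over 24 alternatives), S100a9 fell by 3.47 ± 0.89 (adjusted p = 0.0145, and 0.00398 to 0.104 over 25), and Lcn2 fell as well while Csf3r rose. S100a8 was above background on 1 of 3 day 7 arrays, so the size of its fall is no measured fold. Over the alternatives its difference ran from -3.650 to -0.977. Csf3r read 6.968 to 7.592 over all arrays, against -2.468 to 3.355 for S100a9, and whether neutrophils were its source was not tested. Of 12 haemoglobin and haem genes, Hba-a1, Hbb-bt and Alas2, genes of red cell precursors, rose at day 14 against day 0, Hbb-bt by 1.83 ± 0.24 (adjusted p = 0.0105, 0.00178 to 0.08). Of 12 fibroblast genes, Gsn, Lum and Pi16 rose at day 3 and 0 fell, with Pi16 higher by 0.81 ± 0.16 (adjusted p = 0.0211, 0.00495 to 0.218). Of 8 blood endothelial genes, Tie1 fell at days 3 and 7 and Pecam1 at day 7. The folate list (5 kept genes) had 0 calls at day 7 (0 at an unadjusted p under 0.05), beside the Folr2 difference of -1.42 ± 0.33. The glucocorticoid list (9 kept) had 1 call at day 3 and 1 at day 7, both Nr3c1 higher, and the list of T and innate lymphoid cells (6 kept) had 2 at day 7, Ikzf2 and Tnfrsf4 higher.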
